A study of Mus musculus with 8 samples.

Results

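The 10 genes described here set the pace of the early cell cycle in endothelial cells (ECs): the D cyclins *Ccnd1*, *Ccnd2* and *Ccnd3*, the CDK inhibitors *Cdkn1a*, *Cdkn1b*, *Cdkn1c*, *Cdkn2a* and *Cdkn2b*, and the transcription factor genes *Myc* and *Mycn*. They were chosen by name from 49315 gene identifiers, and all 10 passed the filter on low counts that left 16887 genes for testing. RNA was sequenced from brain ECs of 4 mutant and 4 wild-type mouse pups at postnatal day 9, 1 library per pup. Mutant pups (Map2k1 K57N) carried a Cre-dependent Map2k1 K57N cDNA at the *Rosa* locus under a CAG promoter and a tamoxifen-dependent Cre driven by the *Cdh5* promoter (*R26*GT-Map2k1-GFP/+ with *Tg-Cdh5CreER*+/-), and both parent lines were kept on a C57BL/6J background. The controls are labelled Wild type, and all litters received tamoxifen at postnatal day 1, so the treatment is shared by both groups. The paper's droplet PCR found the recombined allele in only a minority of the brain ECs, so each mutant library mixes recombined and unrecombined cells. A change given below for mutant ECs is one of this mixture, and which of its cells changed was not tested. No control expressed unmutated MAP2K1 from the *Rosa* locus.

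D cyclins bind CDK4 and CDK6 and start the phosphorylation of the retinoblastoma protein, which releases E2F factors and lets a cell pass from G1 into S phase. MAP2K1 (MEK1) activates ERK, and *Ccnd1* and *Myc* are textbook genes downstream of ERK. Inhibitors of the INK4 family, such as those made from *Cdkn2a* and *Cdkn2b*, block CDK4 and CDK6, while the Cip/Kip inhibitors p21 (*Cdkn1a*), p27 (*Cdkn1b*) and p57 (*Cdkn1c*) bind a wider range of cyclin-CDK complexes. *Cdkn2a* also encodes ARF, which stabilises p53, and *Cdkn1a* is a classical p53 target.

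In mutant ECs all 3 D cyclins fell, *Cdkn2a* and *Myc* rose, and *Mycn* and *Cdkn1c* fell. *Cdkn2a* had the largest change of the 10 genes, about 9.4-fold, and *Myc* and *Mycn* moved in opposite directions. Of the 10 genes, 3 rose and 5 fell at an adjusted p under 0.05, by the quasi-likelihood test of edgeR with p-values adjusted by Benjamini-Hochberg over all tested genes. The background for this call is high, since 44.4% of all tested genes passed it, 21.5% higher and 22.9% lower. When a log2 fold change beyond 1 in either direction was also asked for, *Cdkn2a* and *Myc* (higher) and *Mycn* (lower) remained, against 14.0% of all tested genes, 5.90% higher and 8.05% lower. The median log2 fold change of all tested genes was -0.02.

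**Figure D1:**
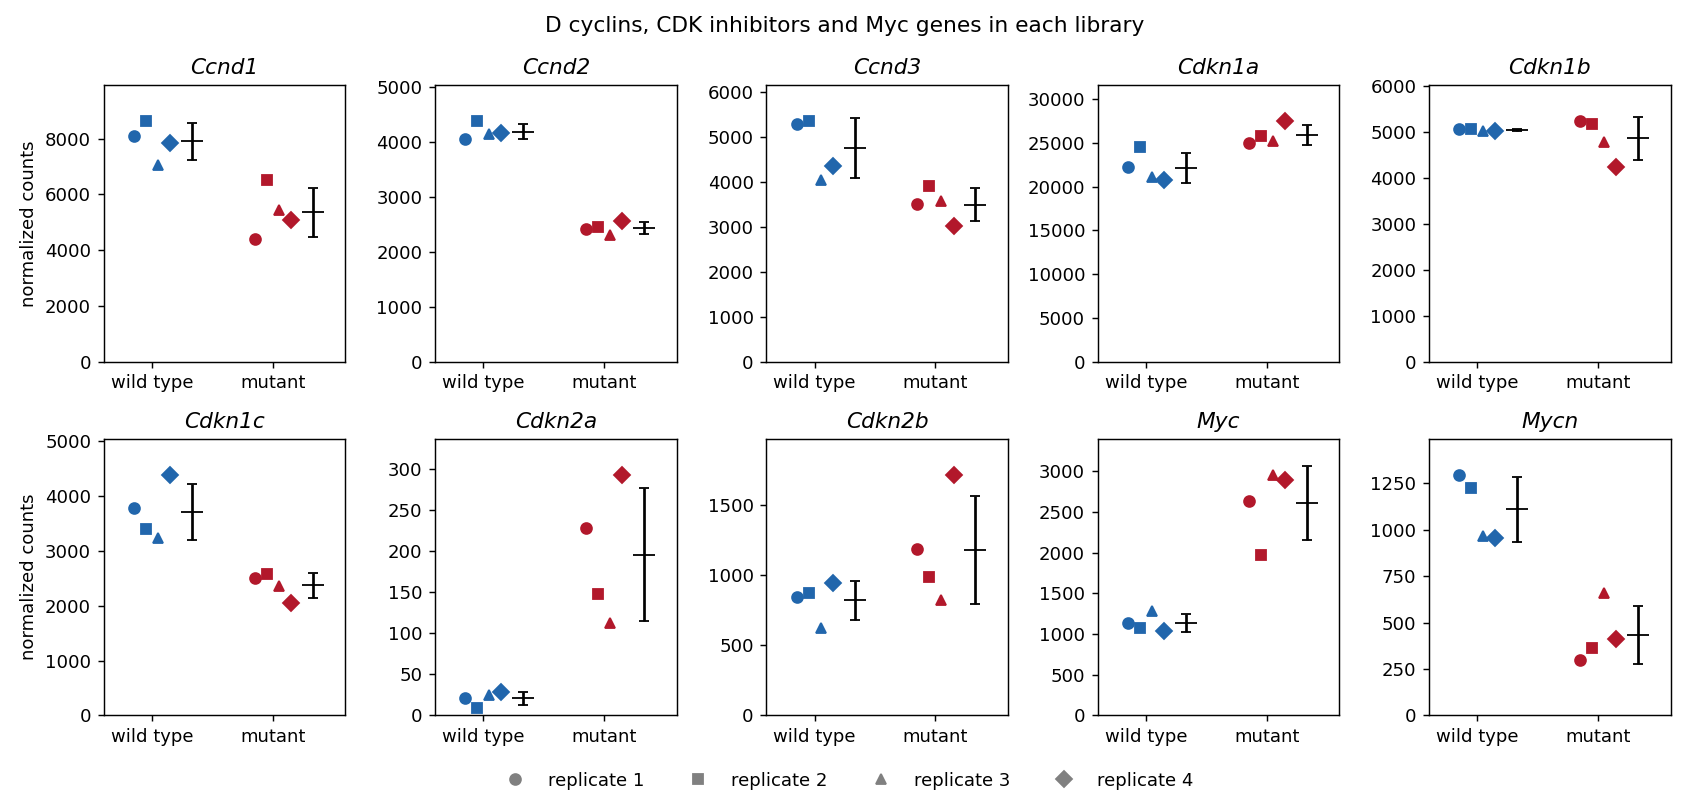
Normalized counts of the 10 genes (vertical axes from 0) in the 4 wild-type (blue) and 4 mutant (red) libraries, one marker shape per replicate number, with the mean and SD in black beside each group. The groups do not overlap for *Ccnd1*, *Ccnd2*, *Ccnd3*, *Cdkn1a*, *Cdkn1c*, *Cdkn2a*, *Myc* and *Mycn*, and overlap for *Cdkn1b* and *Cdkn2b*.

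Libraries held 24833373 to 34196955 counts in mutant and 28146348 to 32208421 in wild-type ECs, and values below are counts scaled by TMM to the mean library size (normalized counts). *Map2k1*, whose count includes the transgene cDNA, was higher in every mutant library (14582 ± 2844 against 1607 ± 116, SD, n = 4 each), which fits the labels. Of the 10 endothelial markers listed, all passed the filter, 3 rose and 3 fell, and their summed level overlapped between mutant (356522 to 432845) and wild-type libraries (333026 to 403834). Other cell types were also present, and most tested members of 4 of their marker lists were lower in mutant ECs. Of the granule neuron progenitor genes, 4 of 6 tested were lower in mutant ECs, with a summed level of 2064 to 3030 against 4749 to 6958. *Zic2* (1728 ± 276 against 4264 ± 380, SD, n = 4) made up most of that sum and was the only tested gene of the list whose groups did not overlap. Wild-type library 4 held 6.31 normalized counts of *Neurod1*, 4.21 of *Barhl1* and 33.7 of *Pax6*, which is within the range of the mutant libraries, while wild-type library 3 held 478, 204 and 410. *Gabra6* was at 0 in all 4 mutant libraries and in wild-type libraries 2 and 4, with 2.76 and 3.45 in wild-type libraries 1 and 3. *Atoh1* was at 0.770 ± 1.04 against 4.03 ± 4.68 (SD, n = 4), and neither gene passed the filter on low counts. Oligodendrocyte lineage genes were lower for 7 of 8 (2137 to 3541 against 3918 to 9858) and red blood cell genes for 6 of 6 (2641 to 8508 against 15843 to 27482). Neuron markers were lower for 3 of 5 (573 to 801 against 825 to 1508), with *Rbfox3* at 293 ± 67.2 against 128 ± 94.9 (SD, n = 4). Pericyte markers were higher for 2 of 6, fibroblast markers for 2 of 4 and smooth muscle markers for 1 of 4, astrocyte markers were higher for 1 and lower for 1 of 6, and none of 6 microglia and macrophage markers passed in edgeR or DESeq2 (0 at an unadjusted p under 0.05), with summed levels of 1849 to 8280 against 2512 to 10753.

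The promoter sequences of the genes that lead the account are shown here because the files count reads per gene and *Cdkn2a* and *Cdkn1a* each have a pair of start sites. Windows run from 250 bases before to 50 bases after a RefSeq start (GRCm38.p6), and the table used held windows for 6 of the 10 genes (*Ccnd3*, *Cdkn1a*, *Cdkn1b*, *Cdkn2a*, *Cdkn2b* and *Mycn*). Both strands were searched for 5 motifs: E2F (TTTNNCGC), the E-box bound by MYC and MAX (CACGTG), AP-1 (TGANTCA), ETS (CCGGAAG) and the p53 consensus decamer. Capitals mark the matches. The first *Cdkn2a* window belongs to the upstream start, whose first exon gives ARF (chr4:89294570-89294869, minus strand), and the second to the downstream start, whose first exon gives p16INK4a (chr4:89282143-89282442, minus strand). The *Cdkn1a* window is at its upstream start (chr17:29090729-29091028, plus strand) and the *Mycn* window at its start (chr12:12941787-12942086, minus strand).
*Cdkn2a*, ARF start: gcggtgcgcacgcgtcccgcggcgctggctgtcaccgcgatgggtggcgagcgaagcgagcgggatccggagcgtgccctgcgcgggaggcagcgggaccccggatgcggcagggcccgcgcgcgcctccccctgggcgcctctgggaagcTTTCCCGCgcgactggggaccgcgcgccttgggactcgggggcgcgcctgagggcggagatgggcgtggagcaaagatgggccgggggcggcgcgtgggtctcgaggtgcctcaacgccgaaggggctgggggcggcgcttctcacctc
*Cdkn2a*, p16INK4a start: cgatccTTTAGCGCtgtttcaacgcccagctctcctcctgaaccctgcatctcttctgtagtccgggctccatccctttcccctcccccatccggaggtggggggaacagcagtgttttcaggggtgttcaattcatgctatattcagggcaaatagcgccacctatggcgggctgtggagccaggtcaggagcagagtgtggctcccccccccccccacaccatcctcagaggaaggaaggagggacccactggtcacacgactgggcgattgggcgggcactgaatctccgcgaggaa
*Cdkn1a*, upstream start: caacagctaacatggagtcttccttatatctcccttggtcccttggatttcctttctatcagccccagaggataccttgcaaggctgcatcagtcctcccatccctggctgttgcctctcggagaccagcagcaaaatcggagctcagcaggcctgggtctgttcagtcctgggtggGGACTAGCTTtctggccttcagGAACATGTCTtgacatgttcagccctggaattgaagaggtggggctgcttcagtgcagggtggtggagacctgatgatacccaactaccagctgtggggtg
*Mycn*: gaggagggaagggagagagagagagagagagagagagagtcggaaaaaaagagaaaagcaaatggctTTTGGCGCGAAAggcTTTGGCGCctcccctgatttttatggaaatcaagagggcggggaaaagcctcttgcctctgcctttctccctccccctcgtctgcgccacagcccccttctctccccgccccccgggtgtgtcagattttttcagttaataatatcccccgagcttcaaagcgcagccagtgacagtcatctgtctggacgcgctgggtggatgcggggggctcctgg
Each *Cdkn2a* window held 1 E2F match, and the *Mycn* window held 3, of which the first and second overlap on opposite strands. Of 32544 windows of the same length, 5.20% held at least 1 E2F match and 0.0369% held 3 or more. The *Cdkn1a* window held 2 matches to the p53 decamer. Of all windows, 8.36% held at least 1 and 0.36% held 2 or more. The window at the downstream *Cdkn1a* start (chr17:29093519-29093818) held none of the 5 motifs. The AP-1 motif (7.79% of windows) and the E-box (7.17%) were in none of the 9 windows of these genes, and the ETS motif (8.91%) was in the second *Ccnd3* window, at its downstream start. A match is a run of letters and not a measured site.

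The D cyclins fell together. *Ccnd1* (ENSMUSG00000070348, chromosome 7 of build GRCm38, minus strand, from 144929931 to 144939925), cyclin D1, had 4386, 6498, 5455 and 5064 normalized counts in mutant libraries 1 to 4 and 8082, 8628, 7045 and 7851 in wild-type libraries 1 to 4. Every mutant library lay below every wild-type library. Of all tested genes, 42.5% of all tested genes had groups that did not overlap, 20.6% with mutant ECs above and 21.9% with mutant ECs below. The log2 fold change of *Ccnd1* was -0.56 (standard error 0.12, edgeR adjusted p = 0.00293), a level 1.48-fold lower. In bulk RNA, fewer cells that express a gene and less of its RNA per cell cannot be told apart.

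*Ccnd2* (ENSMUSG00000000184, minus strand of chromosome 6 from 127125162 to 127152193), cyclin D2, had the narrowest spread of the 3. It was at 2406, 2441, 2309 and 2565 in mutant libraries and at 4040, 4374, 4146 and 4160 in wild-type libraries. The gap between the groups was far wider than the spread within them, and the fitted log2 change was -0.78 (standard error 0.06, edgeR adjusted p = 9.81e-06). *Ccnd3* (ENSMUSG00000034165, plus strand of chromosome 17 from 47505051 to 47599691), cyclin D3, was at 3505, 3897, 3559 and 3004 in mutant and 5276, 5346, 4029 and 4340 in wild-type libraries. Here the highest mutant library came close to the lowest wild-type library, and the log2 fold change was -0.44 (standard error 0.11, edgeR adjusted p = 0.00846). The summed red blood cell genes were at 27482, 24798, 15843 and 16456 in wild-type libraries 1 to 4. They were highest in libraries 1 and 2, which share a label prefix, as *Ccnd1* and *Ccnd3* were and *Ccnd2* was not. In mutant libraries 1 to 4 the red blood cell sum was 6232, 8027, 8508 and 2641. The part of red blood cells in the fall of *Ccnd1* and *Ccnd3* was not tested. *Ccnd1* and *Ccnd2* are also transcribed in granule neuron progenitors. In wild-type library 4, where *Neurod1*, *Barhl1* and *Pax6* were within the mutant range, *Ccnd1* (7851) and *Ccnd2* (4160) were within the range of the other wild-type libraries, while *Zic2* was at 4255; the part of these cells in the fall was not tested.

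Per unit of gene length (TMM-scaled CPM per kilobase), *Ccnd1* was the most abundant D cyclin, at 38.4 ± 6.33 in mutant and 56.7 ± 4.72 in wild-type ECs (SD, n = 4 each). *Ccnd3* followed with 13.4 ± 1.42 and 18.3 ± 2.55, and *Ccnd2* with 8.72 ± 0.379 and 15.0 ± 0.503. In wild-type ECs *Ccnd2* (14.5 to 15.7) and *Ccnd3* (15.5 to 20.6) overlapped, in mutant ECs they did not (8.29 to 9.21 and 11.6 to 15.0), and *Ccnd1* was above both in every library. The summed level of the 3 genes was 53.6, 70.4, 61.1 and 57.1 in mutant libraries and 92.8, 98.2, 80.9 and 88.0 in wild-type libraries. *Ccnd1* held 63.1% ± 3.17 of that sum in mutant and 63.0% ± 0.738 in wild-type ECs (SD, n = 4), and the shares of *Ccnd2* (14.6% ± 1.85 and 16.7% ± 1.23) and *Ccnd3* (22.3% ± 2.12 and 20.3% ± 1.41) also overlapped between the groups. The sum fell while the share of each gene overlapped between the groups, and a difference in shares was not tested.

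**Figure D2:**
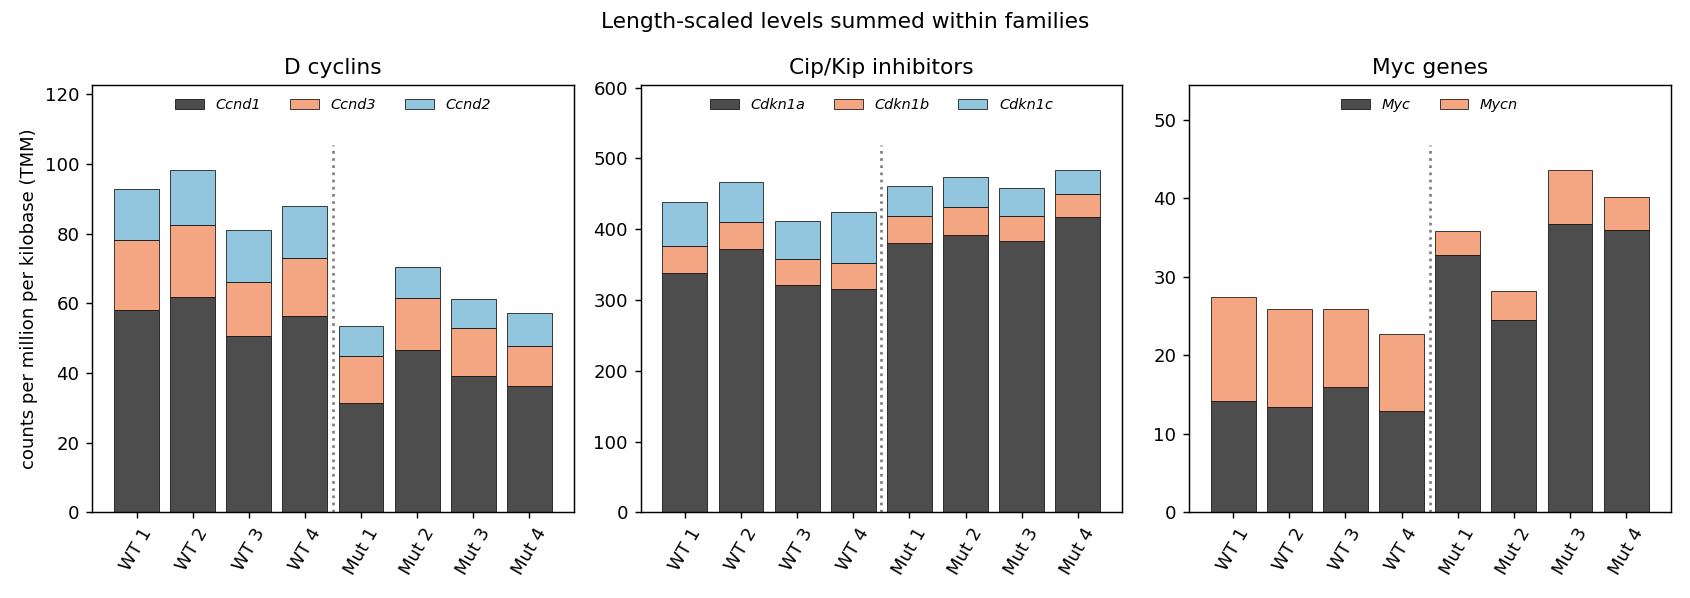
Length-scaled level (TMM-scaled CPM per kilobase, bars from 0) of the D cyclins, the Cip/Kip inhibitors and the Myc genes, stacked by gene, in wild-type libraries 1 to 4 (left of the dotted line) and mutant libraries 1 to 4 (right). The D cyclin sum is 53.6 to 70.4 in mutant and 80.9 to 98.2 in wild-type libraries, and the *Mycn* layer shrinks in mutant libraries while the *Myc* layer grows.

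Among the Cip/Kip inhibitors, 1 gene fell, 1 rose slightly and 1 did not pass the test. *Cdkn1c* (ENSMUSG00000037664, minus strand of chromosome 7 from 143458339 to 143461050), the imprinted gene of p57, had 2498, 2581, 2350 and 2044 normalized counts in mutant libraries and 3787, 3400, 3240 and 4389 in wild-type libraries. The groups did not overlap, and the log2 fold change was -0.65 (standard error 0.11, edgeR adjusted p = 8.37e-04). Its antisense neighbour *Gm44732* shares 625 exonic bases with it and had 24.7 ± 16.7 and 69.0 ± 13.2 normalized counts (SD, n = 4).

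*Cdkn1a* (ENSMUSG00000023067, plus strand of chromosome 17 from 29090979 to 29100722), the gene of p21 whose upstream promoter is printed above, was the most abundant of the 10 genes. It had 25019, 25817, 25234 and 27496 normalized counts in mutant libraries and 22290, 24528, 21129 and 20719 in wild-type libraries. Mutant libraries were all higher, with the lowest of them close to the highest wild-type library, and the log2 fold change was 0.22 (standard error 0.08, edgeR adjusted p = 0.0375). The call was lost without mutant replicate 2 (adjusted p = 0.0715) or 4 (0.0502) and without wild type replicate 1 (0.0552), 3 (0.0860) or 4 (0.0958), all by the same edgeR test. *Cdkn1b* (ENSMUSG00000003031, plus strand of chromosome 6 from 134920401 to 134925513), the gene of p27, had 5231, 5172, 4783 and 4230 in mutant and 5061, 5066, 5024 and 5016 in wild-type libraries. The groups overlapped, and the log2 fold change of -0.06 had a 95% interval from -0.22 to 0.11 (edgeR adjusted p = 0.585).

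Per unit of length, *Cdkn1a* stood at 393 ± 17.0 in mutant and 337 ± 26.0 in wild-type ECs, *Cdkn1c* at 39.2 ± 3.92 and 61.4 ± 8.47, and *Cdkn1b* at 36.0 ± 3.42 and 37.4 ± 0.189 (TMM-scaled CPM per kilobase, SD, n = 4 each). In mutant ECs *Cdkn1b* (31.4 to 38.8) and *Cdkn1c* (33.9 to 42.8) overlapped, while in wild-type ECs *Cdkn1c* was above *Cdkn1b* in each library. The share of *Cdkn1c* in the Cip/Kip sum was 7.01% to 9.03% over mutant libraries and 12.1% to 17.1% over wild-type libraries. *Cdkn1a* took 83.9% ± 1.79 and 77.3% ± 2.39 of the sum (SD, n = 4).

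*Cdkn2a* (ENSMUSG00000044303, minus strand of chromosome 4 from 89274471 to 89294653) was low in wild-type ECs, with 23, 10, 28 and 27 raw counts in wild-type libraries 1 to 4. Mutant libraries held 180, 134, 102 and 337 raw counts, each well above the highest wild-type library. After normalization these were 227, 148, 113 and 293 against 21.1, 9.38, 24.1 and 28.4. The log2 fold change was 3.23 (standard error 0.38, 95% interval 2.39 to 4.07, edgeR adjusted p = 1.05e-04), and only 117 of the tested genes had a larger fitted rise. Leaving out each library in turn kept it between 2.98 and 3.43. Even in mutant ECs the level stayed low for this set of genes, at 5.62 ± 2.33 TMM-scaled CPM per kilobase against 0.598 ± 0.235 in wild-type ECs (SD, n = 4). Reads were counted over the whole gene, so the transcripts from the ARF start and the p16INK4a start cannot be told apart.

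*Cdkn2b* (ENSMUSG00000073802, minus strand of chromosome 4 from 89306289 to 89311032), the gene of p15INK4b and the neighbour of *Cdkn2a*, had 1190, 989, 827 and 1718 normalized counts in mutant libraries. Wild-type libraries had 844, 872, 621 and 946, so mutant library 3 lay inside the wild-type range and mutant library 4 well above all others. Its log2 fold change was 0.53 (standard error 0.21, 95% interval 0.06 to 0.99) and the edgeR adjusted p was 0.0639. Without mutant replicate 3 the edgeR adjusted p was 0.0183 (log2 fold change 0.67), and without mutant replicate 4 the log2 fold change was 0.31. *Cdkn2b* passed with the replicate number as a block (edgeR adjusted p = 0.00748) and with a block for the prefix that sample labels share (0.00417). Mutant library 4 held the highest value of the 8 libraries for *Cdkn2a*, *Cdkn2b* and *Cdkn1a* alike.

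*Myc* (ENSMUSG00000022346, plus strand of chromosome 15 from 61985391 to 61990374), the gene of c-MYC, had 2637, 1969, 2960 and 2896 normalized counts in mutant libraries and 1137, 1074, 1288 and 1043 in wild-type libraries. All mutant libraries were higher by a wide margin, and the log2 fold change was 1.20 (standard error 0.13, edgeR adjusted p = 5.71e-05). *Mycn* (ENSMUSG00000037169, minus strand of chromosome 12 from 12936096 to 12941914), the gene of N-MYC, had 298, 364, 660 and 411 in mutant and 1296, 1224, 966 and 956 in wild-type libraries. Mutant library 3 was the highest of its group but still below every wild-type library, and the log2 fold change was -1.36 (standard error 0.22, edgeR adjusted p = 6.96e-04), a level 2.56-fold lower.

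Per unit of length the pair stood close in wild-type ECs, with *Myc* at 14.1 ± 1.35 and *Mycn* at 11.4 ± 1.80, and far apart in mutant ECs, at 32.5 ± 5.64 and 4.44 ± 1.62 (TMM-scaled CPM per kilobase, SD, n = 4 each). *Mycn* therefore made up 38.2% to 48.5% of the summed *Myc* and *Mycn* level in wild-type libraries and 8.53% to 15.5% in mutant libraries. The sum itself was 37.0 ± 6.64 in mutant and 25.5 ± 1.96 in wild-type ECs (SD, n = 4). *Mycn* is also a known gene of granule neuron progenitors. It was at 1296, 1224, 966 and 956 in wild-type libraries 1 to 4, highest in libraries 1 and 2 as the summed red blood cell genes were. In the same libraries *Neurod1* was at 235, 55.3, 478 and 6.31, and *Zic2* at 4630, 4429, 3742 and 4255. The part of granule neuron progenitors or of red blood cells in the fall of *Mycn* was not tested. *Myc* rose while 8 of 10 immediate early and dissociation-induced genes fell, with a summed level of 140544 to 241413 normalized counts in mutant and 302349 to 388453 in wild-type libraries; their part in the *Myc* value was not tested either.

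**Figure D3:**
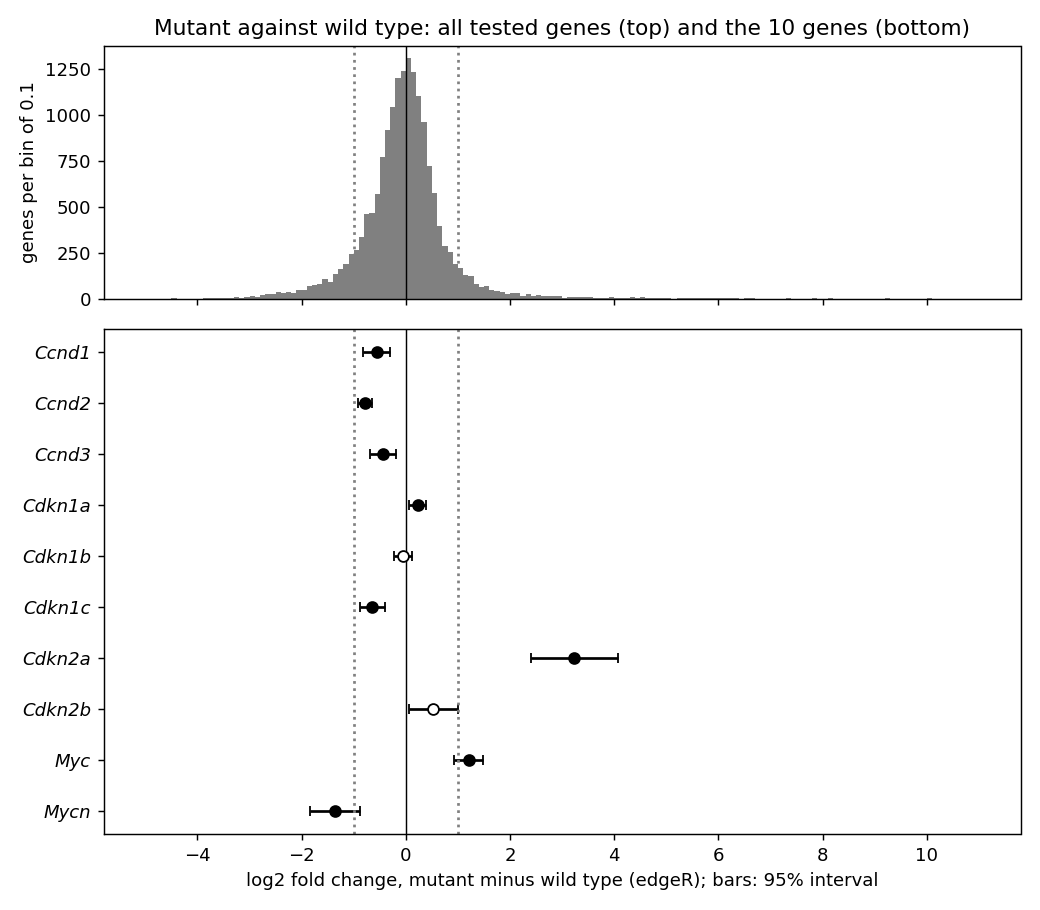
Top, number of tested genes in each bin of log2 fold change (mutant minus wild type, horizontal axis); bottom, the fitted log2 fold change of each of the 10 genes with its 95% interval, filled where the adjusted p was under 0.05. Dotted lines mark an absolute log2 fold change of 1, which *Cdkn2a* (3.23), *Myc* (1.20) and *Mycn* (-1.36) exceed.

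The sample labels carry 3 prefixes, each with as many mutant as wild-type libraries: one holds replicates 1 and 2 and the others replicate 3 and replicate 4. Wild-type pups had been matched in number to mutant pups within each litter, and the labels do not say whether a prefix marks a litter. The groups of all 8 genes called did not overlap, so their direction had to be the same within each prefix and adds no support. The log2 ratio of mutant to wild type ranged over the prefixes from 2.22 to 3.62 for *Cdkn2a*, from 1.06 to 1.47 for *Myc* and from -1.93 to -0.55 for *Mycn*. It ranged from -0.63 to -0.37 for *Ccnd1*, from -0.84 to -0.70 for *Ccnd2*, from -0.53 to -0.18 for *Ccnd3*, from -1.10 to -0.46 for *Cdkn1c* and from 0.12 to 0.41 for *Cdkn1a*. *Cdkn1b* changed sign between prefixes (0.04 to -0.25), and *Cdkn2b* was higher in mutant ECs in each (0.34 to 0.86). A prefix with 1 library per group gives no test of its own.

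The partners through which D cyclins act moved in both directions. Of 15 genes of the retinoblastoma pathway, 7 rose, 5 fell and 3 did not pass the edgeR test, with a median log2 fold change of 0.14. *Cdk4* and *Cdk6*, the kinases that D cyclins activate, rose by log2 fold changes of 0.92 (standard error 0.09, edgeR adjusted p = 4.57e-05) and 0.85 (standard error 0.12, edgeR adjusted p = 2.81e-04). *Cdk4* had 4530 ± 295 normalized counts in mutant and 2387 ± 292 in wild-type ECs (SD, n = 4), so it rose in the libraries in which all its D cyclin partners fell. *E2f2*, an activating E2F, fell by 1.01 on the log2 scale (standard error 0.16, edgeR adjusted p = 7.50e-04). It had 478, 534, 417 and 353 normalized counts in wild-type libraries 1 to 4. Libraries 1 and 2 were the highest, as for the summed red blood cell genes. The part of red blood cells in the fall of *E2f2* was not tested. Without mutant replicate 3 or 4 only 3 genes of this list were lower.

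Of 12 genes of the cyclin E-CDK2 step and of inhibitor turnover, 3 rose and 2 fell (median log2 fold change 0.03). The lower pair were the other INK4 genes, *Cdkn2c* and *Cdkn2d*, which encode p18 and p19INK4d. *Cdkn2c* fell by 1.06 on the log2 scale (standard error 0.16, edgeR adjusted p = 3.90e-04), from 576 ± 106 to 278 ± 40.2 normalized counts (SD, n = 4), and *Cdkn2d*, a gene outside the rule for names, had a log2 fold change of -0.79. *Cdkn2c* and *Cdkn2d* were thus lower in mutant libraries, while *Cdkn2a* was higher and *Cdkn2b* did not pass the test. Wild-type libraries 1 to 4 held 656, 670, 530 and 448 normalized counts of *Cdkn2c* and 898, 892, 599 and 584 of *Cdkn2d*. Both were higher in libraries 1 and 2, as the summed red blood cell genes were. The part of red blood cells in these falls was not tested. The count of *Cdkn2a* does not separate p16INK4a from ARF, so its rise cannot be assigned to the INK4 product. *Cks1b*, a cofactor in the degradation of p27, rose by 0.65 (edgeR adjusted p = 5.32e-04) and *Cdc25a*, the phosphatase that activates CDK2, by 0.61 (edgeR adjusted p = 5.89e-04) on the log2 scale.

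Genes of ribosome production and metabolism that MYC is known to activate rose nearly together. Of the 18 listed, 17 rose and 0 fell (0 also at an unadjusted p under 0.05, and 0 in DESeq2), with a median log2 fold change of 0.50, against 21.5% higher calls among all tested genes. *Nop56*, at -0.11, did not pass the test. The list was chosen with earlier results of these data known, and the 21.5% covers tested genes of every count level. The count is therefore a description and not a test. *Npm1*, nucleophosmin, rose from 8486 ± 301 to 18299 ± 670 normalized counts (SD, n = 4, log2 fold change 1.11, edgeR adjusted p = 1.82e-06). *Srm*, spermidine synthase, rose by 1.00 (edgeR adjusted p = 1.32e-04) and *Fbl*, the nucleolar methyltransferase fibrillarin, by 0.66 (edgeR adjusted p = 4.44e-05) on the log2 scale. With each library left out, 14 to 17 of these genes were called higher.

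Within the network of MYC and MAX partners, 2 of 11 genes rose, 2 fell and 7 did not pass the edgeR test (median log2 fold change -0.01). The third Myc family gene, *Mycl*, fell with *Mycn*, from 733 ± 63.3 to 126 ± 70.7 normalized counts (SD, n = 4, log2 fold change -2.55, edgeR adjusted p = 1.61e-04). *Mlxip*, a glucose-responsive partner of MLX, rose by 1.18 (edgeR adjusted p = 2.82e-04) and *Mnt*, a MAX-binding repressor, by 0.41 (edgeR adjusted p = 0.00653) on the log2 scale. *Max* itself had a log2 fold change of -0.01 (edgeR adjusted p = 0.871). Without mutant replicate 2, mutant replicate 3 or wild type replicate 3, only 1 gene of the network was lower.

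Several p53 targets rose by more than *Cdkn1a*. Of 14 genes of the p53 pathway, 8 rose, 2 fell and 4 did not pass, with a median log2 fold change of 0.52. *Eda2r*, a receptor of the TNF receptor superfamily, had 873, 607, 810 and 1748 normalized counts in mutant libraries and 28.5, 34.7, 44.8 and 31.6 in wild-type libraries. Mutant library 4 was the highest, as it was for *Cdkn2a*, and the log2 fold change was 4.85 (standard error 0.35, edgeR adjusted p = 6.35e-06). *Phlda3*, an inhibitor of AKT, rose from 171 ± 20.1 to 1073 ± 258 (SD, n = 4, log2 fold change 2.65, edgeR adjusted p = 3.35e-06) and *Aen*, an exonuclease of apoptosis, by 1.22 on the log2 scale (edgeR adjusted p = 7.67e-05). The 2 lower genes, *Bbc3* and *Sesn1*, had log2 fold changes of -0.75 and -0.84, and *Trp53* itself had 0.12 (edgeR adjusted p = 0.295); these genes are outside the rule for names.

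Genes of S phase and mitosis moved little. Of 18 listed, 6 rose, 2 fell and 10 did not pass, with a median log2 fold change of 0.23 and no change over 1. *Cdk1*, the mitotic kinase, rose by 0.37 (edgeR adjusted p = 0.00743), and the replication helicase genes *Mcm5* by 0.41 (edgeR adjusted p = 0.0105) and *Mcm7* by 0.32 (edgeR adjusted p = 0.0246), on the log2 scale. *Mki67*, which marks cycling cells, had 4297 ± 424 normalized counts in mutant and 4548 ± 647 in wild-type ECs (SD, n = 4), and the 95% interval of its log2 fold change ran from -0.33 to 0.16. Other cell types were present and several of their marker lists were lower in mutant libraries. Their part in the values of these cell cycle genes was not tested. *Mcm7* lost its call without mutant replicate 2 (edgeR adjusted p = 0.0539) or 3 (0.0581). It also lost it when counts were scaled by library size only (0.0709). Blocking on the label prefix gave 10 higher genes in this list, and blocking on the replicate number likewise gave 10. The number of higher genes depended on single libraries, with 2 without mutant replicate 2 and 3 without wild type replicate 3 or 4. The number of lower genes was 0 without mutant replicate 1, 2 or 4 or wild type replicate 1 or 2, and 1 without mutant replicate 3 or wild type replicate 3.

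Of 10 genes that report ERK activity, 7 rose, 2 fell and 1 did not pass (median log2 fold change 0.78). *Etv4* rose by 4.28 (edgeR adjusted p = 1.27e-07), *Spred1* by 0.98 (edgeR adjusted p = 7.54e-05) and *Spry2* by 0.92 (edgeR adjusted p = 8.85e-05) on the log2 scale. *Ccnd1* thus fell in the libraries in which these ERK targets rose. *Fos* (outside the rule for names, log2 fold change -1.24) and *Jun* (-1.13) fell in the same libraries. The paper names c-FOS, c-JUN and c-MYC as factors whose expression ERK stimulates. Of their genes, *Myc* rose (log2 fold change 1.20), while *Fos* and *Jun* are listed here with the immediate early genes. The 2 lower genes, *Dusp6* (log2 fold change -0.41) and *Phlda1* (-0.43), were reduced to 1 without mutant replicate 2 or 4 or without wild type replicate 1, 2 or 3. Of the list of immediate early and dissociation-induced genes, the heat shock chaperone gene *Hspa1a* fell by 2.51 (edgeR adjusted p = 3.64e-05), the immediate early genes *Nr4a1* by 1.33 (edgeR adjusted p = 2.37e-04) and *Jun* by 1.13 (edgeR adjusted p = 1.60e-04) on the log2 scale.

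**Figure D4:**
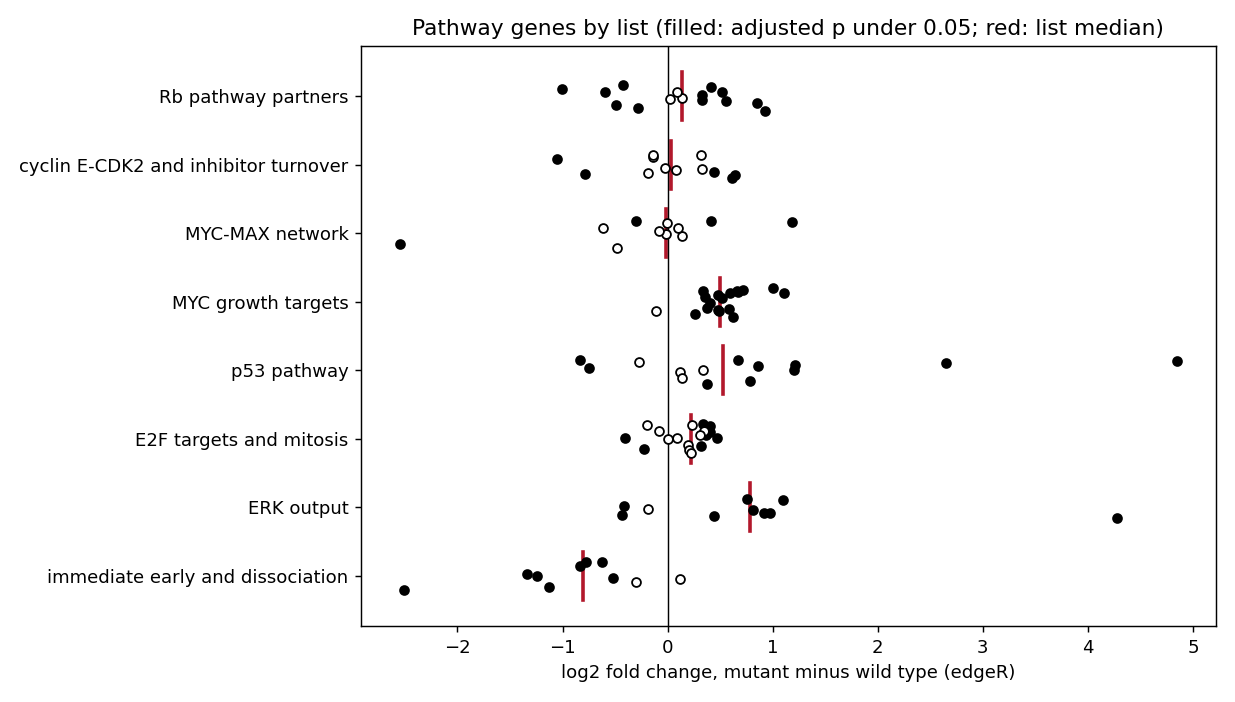
Log2 fold change (mutant minus wild type, horizontal axis) of every gene of the 8 pathway lists, 1 point per gene with random vertical scatter, filled where the adjusted p was under 0.05; red bars are list medians. The MYC growth targets lie to the right of 0 except *Nop56*, and the immediate early genes lie mostly to the left (median -0.81).

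The genes whose level followed *Cdkn2a* most closely over the 8 libraries were *Map1b*, *Ube2w* and *Adarb1* (Pearson's r of log2 CPM of 0.996, 0.993 and 0.993). For *Myc* they were *Ager*, *Nip7* and *Plekho1* (0.988, 0.987 and 0.984), and for *Mycn* they were *Rasd2*, *Mras* and *Man2b2* (0.994, 0.994 and 0.994). The 8 libraries form 2 groups that differ for each of these genes, so the correlations include the difference between the groups. *Map1b*, which encodes a microtubule-associated protein, had 9370 ± 1109 normalized counts in mutant and 4631 ± 506 in wild-type ECs (SD, n = 4). Mutant library 4 was the highest and mutant library 3 the lowest of its group, as for *Cdkn2a*. The choice of *Map1b* by its correlation favours such a shared order, so it adds no support. *Nip7*, a factor of ribosome production, had 753 ± 58.4 and 474 ± 46.8 (SD, n = 4).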

How the data were processed

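Poly(A) RNA of 8 brain EC isolations, captured with anti-CD31 beads, was sequenced, 1 library per pup. The authors used Trimmomatic for trimming and STAR for mapping to GRCm38, and deposited whole-number counts per gene without normalization; the counting program, annotation release and use of strand are not given in the sources used here. The labels name no strand-specific kit, so reads of overlapping genes cannot be assigned with certainty: *Ccnd1* shares 1100 exonic bases with LTO1 (211 ± 12.9 and 293 ± 26.2 normalized counts in mutant and wild-type ECs, SD, n = 4), *Ccnd3* 361 with *Bysl*. The authors' deposited table of size-factor normalized counts was not used.

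Counts were scaled by TMM, filtered with filterByExpr (minimum count 10; 16887 genes kept) and tested over all genes in edgeR 4.0.16 (glmQLFit, glmQLFTest, R 4.3.3) with Benjamini-Hochberg adjustment. Standard errors are the log2 fold change divided by the square root of the F statistic. Level per length is TMM-scaled CPM per kilobase of the gene length in the files. Of 49315 identifiers, 48970 matched a symbol. On simulated counts for 16887 genes of this comparison, 192 of 200 changed and 12 unchanged genes were called. The changed genes had mean counts of at least 100 and log2 fold changes of at least 1 in size, so recovery of smaller changes was not examined. Pairs of libraries within a group differed by more than counting noise (chi-square per degree of freedom 6.70 to 37.1), so the spread between pups limits precision. Alternatives were DESeq2 1.42.0, other scalings and filters, blocks and each library left out. The 10 genes and all lists were chosen with earlier results of these data known. Named genes are the 10, up to 3 genes of smallest p per pathway list (adjusted p under 0.05, mean of at least 100 normalized counts) and the 3 protein-coding genes most correlated with each of *Cdkn2a*, *Myc* and *Mycn*; others are named as outside that rule or to give a count.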

Additional observations from a re-analysis of the deposited data

Results flagged for a closer look

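Of 102 sets of 4 libraries checked among the genes named and the family shares, 4 had 1 library far from the other 3, where chance gives about 1 in 20. *Mnt* was at 1846 normalized counts in wild-type library 3 against 1746 to 1759 in the others. *Srm* was at 587 in wild-type library 4 against 695 to 717. *Plekho1* was at 791 in wild-type library 3 against 561 to 581, and *Mras* at 214 in mutant library 3 against 141 to 154. None of the 10 genes themselves was among them.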

How the results depend on the processing

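The 5 lower calls (*Ccnd1*, *Ccnd2*, *Ccnd3*, *Cdkn1c*, *Mycn*) and the higher calls of *Cdkn2a* and *Myc* kept their direction and their side of the threshold under all 15 alternatives. *Cdkn1a* did not: besides the libraries named above, it lost its call with library size only (adjusted p = 0.0878) and with no filter on low counts (0.0880), and its adjusted p over the alternatives ran from 0.00875 to 0.0958. *Cdkn2b* passed with DESeq2 (adjusted p = 0.0264), with no filter in edgeR (0.0222), and with either block. The log2 fold change of *Cdkn1b* ranged from -0.086 to 0.029 with each library left out, and turned sign without mutant replicate 4 (0.029). The count of higher members was 2 to 4 with each library left out. The replicate number as a block gave 4 higher and 5 lower members. Deviations from the group mean correlated by 0.20, 0.21, 0.29 and 0.02 between same-numbered libraries. Within the prefix of replicates 1 and 2, all correlations between mutant and wild-type libraries were positive (0.17 to 0.25). Mutant library 4 correlated with wild-type library 3 by 0.38. The main fit used no block and so leaves the matching within litters unused, and the fits with a block are given beside it. The replicate number as a block and the label prefix as a block each raised the higher S phase and mitosis genes from 6 to 10. The lower genes of that list numbered 1 with RLE size factors, DESeq2 or no filter. With each library left out, the lower genes of the retinoblastoma list ranged from 3 to 5, of the MYC and MAX network from 1 to 2, of the ERK list from 1 to 2 and of S phase and mitosis from 0 to 2, and the higher ones of the latter from 2 to 8. A log2 fold change beyond 1, asked for as well, left 996 higher and 1360 lower genes in all, 1 lower member (*Mycn*), 0 higher and 1 lower gene of the retinoblastoma list, 0 and 1 of the cyclin E list, 1 and 1 of the MYC and MAX network, 2 higher MYC growth targets, 4 and 0 of the p53 list, 0 and 0 of S phase and mitosis, and 2 and 0 of the ERK list. Without length scaling, *Ccnd1*, *Ccnd2* and *Ccnd3* held 47.3%, 21.7% and 31.0% of D cyclin counts in mutant and 46.9%, 24.9% and 28.1% in wild-type ECs. On that scale *Cdkn1a* and *Cdkn1b* held 78.2% and 14.7% of Cip/Kip counts in mutant and 71.6% and 16.3% in wild-type ECs, and *Cdkn1c* 7.16% in mutant ECs. Over the 43 genes named, 629 of 645 values kept direction and call. The cause of these shifts was not tested.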
